A study of Mus musculus with 6 samples.

Results

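A set of 10 genes of the autophagy pathway was followed in the sciatic nerve of newborn mice. They were the genes whose symbol in the deposited gene table, split where a row lists several symbols, was Sqstm1, Map1lc3b, Gabarapl1, Ulk1, Becn1, Atg5, Atg7, Atg12, Wipi1 or Tfeb. Each symbol matched 1 row, so the set holds 10 of the 59485 genes of the table, and all 10 passed the filter on low values. RNA was sequenced from the sciatic nerves of 3 control and 3 Adar1 mutant animals at postnatal day 4, with 1 library per animal. The controls are labelled wild-type, a name that the study's methods give to mice with at least 1 floxed Adar1 allele and the R26R reporter but no Cre. The mutants are labelled Ht-PA-Cre; Adar1fl/fl;R26R, which means that a Cre active in neural crest cells recombines both floxed alleles of Adar1, the gene of an RNA-editing enzyme, and switches on a fluorescent reporter at the ROSA26 locus. The nerve also holds cells outside the neural crest lineage, in which this Cre leaves the gene intact, and in a bulk sample fewer cells of a type and less RNA per cell cannot be told apart.

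Autophagy encloses cytoplasm, damaged organelles or protein aggregates in a double membrane, the autophagosome, and delivers them to lysosomes for digestion. The ULK1 kinase complex starts the process, a lipid kinase complex built on beclin 1 (Becn1) marks the membrane, WIPI proteins read that mark, and 2 ubiquitin-like conjugation systems attach proteins of the ATG8 family (LC3 and GABARAP proteins) to the growing membrane. Receptors such as p62 (Sqstm1) bind both cargo and ATG8 proteins, and are themselves digested with the cargo. Schwann cells, the myelin-forming glia of peripheral nerve, use this pathway to break down their own myelin after nerve injury.

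Libraries held between 50938349 and 78250094 reads on genes, and the lowest count behind any value of the 10 genes was 673 reads, for Tfeb. Among the mutants, mutant 3 stood apart in its skeletal muscle RNA, mutant 2 in its adipocyte RNA and mutant 1 in its myelin gene RNA, as given with the marker lists at the end. Mutant 1 was also the farthest from the other two over all genes (chi-square per gene of 133 and 112, against 69.7 between mutant 2 and 3). Adar, the targeted gene, read 1602, 2066 and 1133 normalized read counts in control 1 to 3 and 11768, 9311 and 9773 in mutant 1 to 3, a log2 fold change of 2.72 (SE 0.20, adjusted p = 4.1e-05 by limma). This is the opposite direction to a deletion. The table gives 1 value per gene, and reads from the deleted segment cannot be told apart in it, so the genotypes below are those of the labels and every direction is drawn from the libraries labelled mutant against those labelled control.

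Promoter sequence from RefSeq (assembly GRCm38.p6), from 250 bases before to 50 bases after each start site, was at hand for 8 of the 10 genes. The promoters of the 4 genes that passed the adjusted test (below) are shown because the members that moved can be compared there. The 120 bases just before the start site are printed 5′ to 3′ on the gene's own strand, and capitals mark the GC box GGGCGG or its reverse complement, the binding motif of Sp1-type factors found in many housekeeping promoters.
Sqstm1, chr11:50210821-50210940, minus strand: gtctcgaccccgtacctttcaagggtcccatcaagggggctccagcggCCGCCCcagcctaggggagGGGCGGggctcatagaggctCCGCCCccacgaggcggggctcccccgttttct
Map1lc3b, chr8:121590318-121590437, plus strand: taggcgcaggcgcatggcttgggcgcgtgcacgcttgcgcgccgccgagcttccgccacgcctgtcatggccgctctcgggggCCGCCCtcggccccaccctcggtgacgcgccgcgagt
Ulk1, chr5:110810082-110810201, minus strand: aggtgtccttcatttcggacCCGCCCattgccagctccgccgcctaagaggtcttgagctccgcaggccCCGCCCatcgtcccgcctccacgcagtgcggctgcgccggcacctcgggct
Wipi1, chr11:109611390-109611509, minus strand: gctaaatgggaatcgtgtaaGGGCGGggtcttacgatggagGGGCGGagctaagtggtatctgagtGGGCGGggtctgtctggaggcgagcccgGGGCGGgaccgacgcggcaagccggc

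The windows of Ulk1 and Wipi1 reach into the gene intervals of the table, which begin upstream of the RefSeq start. The GC box was searched for on both strands, and was added to the search after the sequences had been seen. It lay in the promoters of 7 of the 8 genes, Atg7 being without a match and Tfeb counted once for its 3 start sites, in 10324 of all 27025 genes with a promoter in the table, and in 35.7% of its 32851 promoters of the same length. Over the full window Wipi1 held 9 matches, Ulk1 5, Sqstm1 3 and Map1lc3b 1. The gene that rose and the 3 that fell thus all carried it.

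The second motif was the E-box core CACGTG, the centre of the element read by TFEB, the transcription factor that switches on lysosomal and autophagy genes. It was found in Atg5 and Atg7, neither of which passed the test. Both are printed to show the motif in capitals with its flanks. The motif ends 9 bases before the start site in Atg5 and 127 bases before it in Atg7. The RefSeq start of Atg7 lies inside the interval that the table gives for the gene.
Atg5, chr10:44268305-44268338, plus strand: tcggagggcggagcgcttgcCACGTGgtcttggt
Atg7, chr6:114670944-114670989, plus strand: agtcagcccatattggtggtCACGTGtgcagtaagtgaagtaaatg

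The E-box core was present in 2 of the 8 genes, in 8 of 54 genes of a full autophagy list that includes them, in 9 of 14 lysosomal genes, in 2187 of all 27025 genes and in 7.15% of all promoters. The longer CLEAR palindrome, the full TFEB element, which contains that core, was in none of the 8 and in 0.326% of all promoters. The core of the antioxidant response element, TGACNNNGC, the site of the oxidative stress factor NRF2, was found in Map1lc3b alone among the 8, at 5 to 13 bases after the start, and in 12.4% of all promoters. The core TGATGNAA of the stress factor ATF4 (3.97% of all promoters) and the core of the interferon-stimulated response element (3.44%) were in none of the 8. These are letters found in a window, not sites shown to be bound.

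Among the 10 genes, Sqstm1 was higher and Wipi1, Map1lc3b and Ulk1 were lower in the mutant nerves, while Becn1, Atg5, Atg7, Atg12, Gabarapl1 and Tfeb did not pass the test. Passing means a Benjamini-Hochberg adjusted p at or under 0.05 over the 25802 genes tested, from limma on log2(value + 1), where the value is the normalized read count. So 4 of the 10 genes passed, 1 higher and 3 lower, where 35% of all genes tested passed, 19% higher and 16% lower. That share of the 10 is near the background of this comparison, in which 9040 genes passed. The median log2 fold change was -0.19 over the 10 genes and 0.03 over all genes tested. It was -0.03 over the 10 genes with libraries scaled to the same total, where all genes tested had 0.19, and -0.12 without control 2. The values of the 2 genotypes did not overlap for 1 gene that was higher and 5 that were lower in mutants, against 49.2% of all genes tested in either direction.

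**Figure D1:**
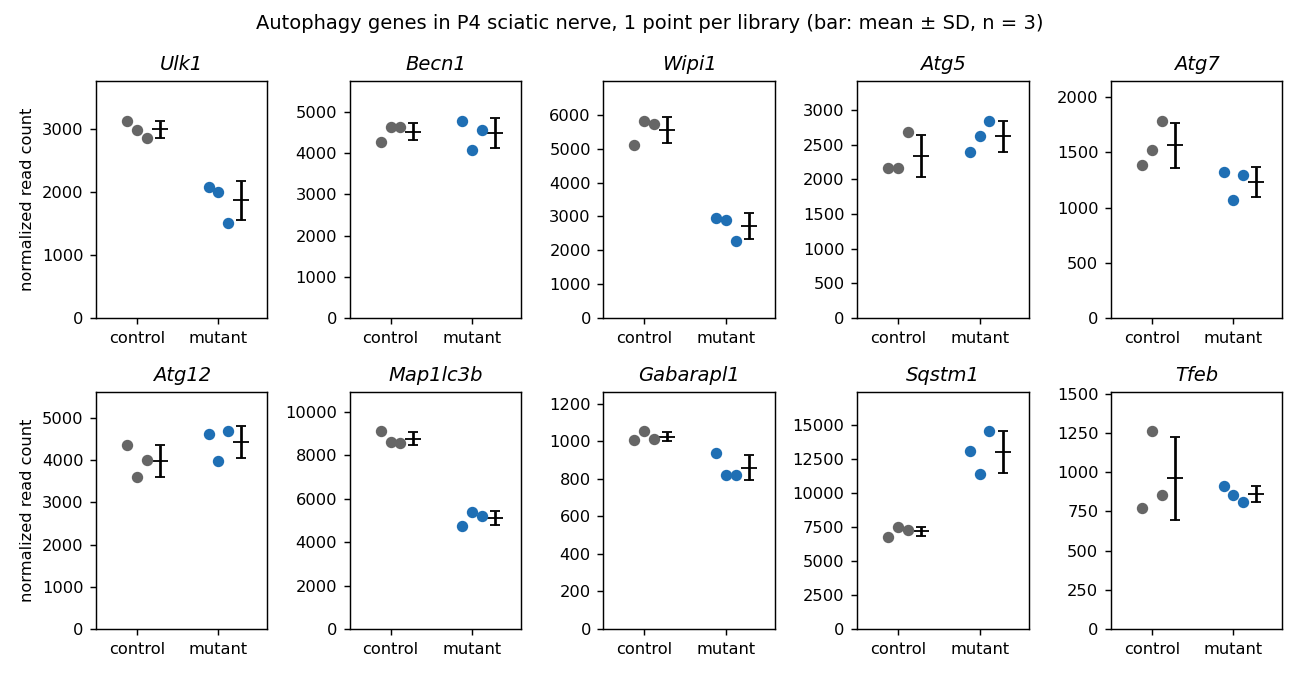
Normalized read count (y axis, from 0, scaled per gene) of the 10 autophagy genes in each of the 3 control and 3 mutant libraries, 1 point per library, with the mean and SD (n = 3) beside the points. Sqstm1 lies higher in all 3 mutant libraries, Ulk1, Wipi1, Map1lc3b, Atg7 and Gabarapl1 lie lower in all 3, and the genotypes overlap for Becn1, Atg5, Atg12 and Tfeb.

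Ulk1 encodes the kinase that starts autophagosome formation and is itself held in check by mTORC1 and activated by AMPK. It (identifier GSMG0030912, mm10 chr5:110784488-110810099, minus strand) read 3138, 2991 and 2869 normalized read counts in control 1 to 3 and 2086, 2006 and 1515 in mutant 1 to 3. The genotypes did not overlap, and mutant 3 was the lowest library. Ulk1 fell from 2999 ± 135 to 1869 ± 309 (SD, n = 3 each), a log2 fold change of -0.70 (SE 0.14, adjusted p = 0.0051 by limma).

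Becn1 encodes the scaffold of the lipid kinase complex. It (GSMG0007418, mm10 chr11:101285952-101302287, minus strand) read 4277, 4641 and 4635 in controls and 4787, 4076 and 4564 in mutants. The highest and the lowest library were both mutant, so the genotypes overlapped fully. The log2 fold change was -0.02 (SE 0.10, adjusted p = 0.92 by limma) with a 95% interval from -0.24 to 0.21, and its sign depended on which library was left out.

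Wipi1 encodes a protein that binds the phosphoinositide made by that kinase and helps to place the conjugation machinery on the membrane. It (GSMG0007569, mm10 chr11:109573332-109611433, minus strand) read 5111, 5827 and 5718 in controls and 2953, 2908 and 2278 in mutants, so that the lowest control stood well above the highest mutant. Wipi1 fell from 5552 ± 386 to 2713 ± 378 (SD, n = 3 each), a log2 fold change of -1.04 (SE 0.12, adjusted p = 0.00042 by limma). It was the only one of the 10 genes with a change of at least 2-fold and an unadjusted p at or under 0.05, the limits of the study's methods, which 24.2% of all genes tested met. Without mutant 3 its log2 fold change was -0.92 and none of the 10 met them. With all libraries scaled to the same total Wipi1 had -0.88, and Sqstm1, at 1.02, was the one that met them.

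The 3 members of the conjugation systems did not pass. Atg7 encodes the enzyme that activates both ATG12 and the ATG8 proteins. It (GSMG0032348, mm10 chr6:114643097-114860612, plus strand) read 1389, 1518 and 1787 in controls and 1325, 1073 and 1294 in mutants, each mutant library below each control. The gap between the lowest control and the highest mutant was small, and the log2 fold change was -0.34 (SE 0.14, 95% interval -0.67 to -0.02) with an adjusted p of 0.092 by limma. With libraries scaled to the same 75th percentile it was -0.41 and passed (adjusted p = 0.048 by limma).

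Atg5 and Atg12 encode the 2 proteins joined in the conjugate that guides ATG8 proteins to the membrane. Atg5 (GSMG0002951, mm10 chr10:44268339-44364291, plus strand) read 2166, 2163 and 2681 in controls and 2392, 2616 and 2845 in mutants, with control 3 among the mutant values and a log2 fold change of 0.17 (95% interval -0.12 to 0.45, adjusted p = 0.33 by limma). Atg12 (GSMG0018950, mm10 chr18:46732417-46741583, minus strand) read 4350, 3599 and 4003 in controls and 4611, 3985 and 4686 in mutants, with mutant 2 among the control values and a log2 fold change of 0.15 (95% interval -0.10 to 0.41, adjusted p = 0.32 by limma). For both genes the interval allowed a rise of less than 2-fold and a small fall.

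Map1lc3b encodes LC3B, the ATG8 protein most used to count autophagosomes. It (GSMG0037921, mm10 chr8:121590450-121598760, plus strand) read 9115, 8642 and 8576 in controls and 4736, 5398 and 5203 in mutants, with little spread inside either genotype. Map1lc3b fell from 8778 ± 294 to 5112 ± 340 (SD, n = 3 each), a log2 fold change of -0.78 (SE 0.09, adjusted p = 0.00032 by limma). Its last bases overlap Zcchc14 on the opposite strand, which was lower too, at 2410 ± 168 in controls and 1766 ± 167 in mutants (SD, n = 3 each). The gene also overlaps GSMG0039004 on the opposite strand, lower as well, at 113 ± 29.5 in controls and 30.5 ± 25.7 in mutants. A further overlap is with GSMG0037918 on the same strand. The part of reads from these genes in the Map1lc3b values was not tested. The libraries keep strand, but whether the counting used it is not given in the sources used here.

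Gabarapl1 encodes an ATG8 protein of the GABARAP branch. It (GSMG0032535, mm10 chr6:129533160-129542332, plus strand) read 1008, 1054 and 1013 in controls and 936, 822 and 822 in mutants, each mutant below each control. The difference was small, with a log2 fold change of -0.26 (SE 0.12, 95% interval -0.53 to 0.02, adjusted p = 0.14 by limma).

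Sqstm1 encodes p62, which gathers ubiquitinated proteins and carries them to the autophagosome. It (GSMG0006611, mm10 chr11:50199366-50210820, minus strand) read 6795, 7480 and 7290 in controls and 13127, 11439 and 14565 in mutants. It was the only one of the 10 genes that rose, and every mutant library was above every control. The mean went from 7188 ± 354 to 13044 ± 1565 (SD, n = 3 each), 1.81 times the control mean, with a log2 fold change of 0.85 (SE 0.11, 95% interval 0.61 to 1.10, adjusted p = 0.00052 by limma). The end of the gene overlaps 3010026O09Rik on the opposite strand, which read 880 ± 74.6 in controls and 922 ± 12.5 in mutants (SD, n = 3 each). The part of reads from that gene in the Sqstm1 values was not tested.

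Tfeb encodes the transcription factor named above. It (GSMG0016762, mm10 chr17:47737037-47792415, plus strand) read 770, 1262 and 853 in controls and 915, 858 and 811 in mutants, all 3 mutants lying within the control range. The log2 fold change was -0.13 (SE 0.19, 95% interval -0.56 to 0.31, adjusted p = 0.64 by limma), the widest interval of the 10 genes, with control 2 far above the other two. Without control 2 it was 0.09. These are transcript levels, and TFEB is known to be governed largely by its entry into the nucleus, which they do not measure.

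**Figure D2:**
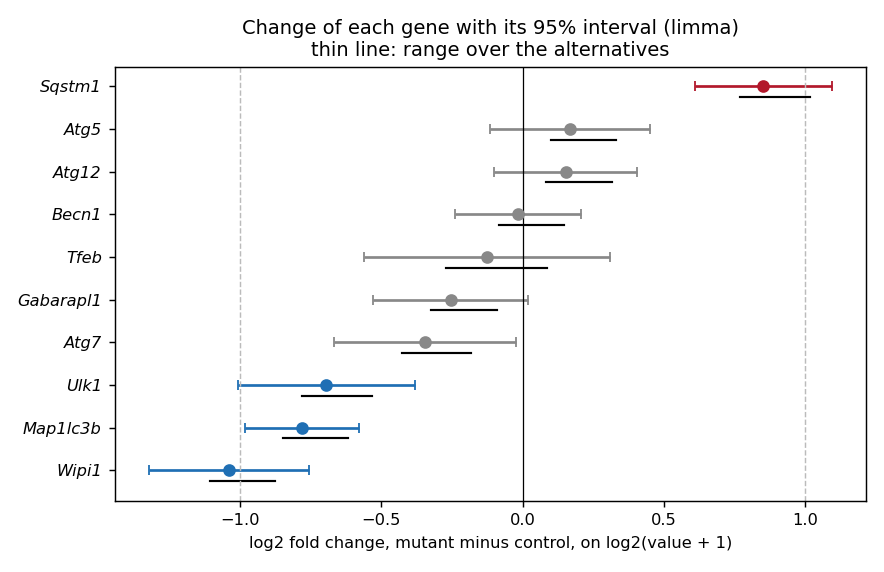
Log2 fold change of each of the 10 genes, mutant minus control on log2(value + 1) (x axis), with its 95% interval from limma (coloured line), sorted from highest to lowest; red and blue mark genes past an adjusted p of 0.05, grey the others, dashed lines a 2-fold change, and the thin black line the range over 17 alternative analyses. The intervals of Sqstm1 (0.61 to 1.10), Ulk1, Map1lc3b and Wipi1 stay on 1 side of 0. So does that of Atg7 (-0.67 to -0.02), which did not pass the adjusted test. Among the ranges over the alternatives, only those of Becn1 and Tfeb cross 0.

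Ratios of a pair of genes within a library are free of the scaling between libraries. Sqstm1 counts divided by Map1lc3b counts were 0.745, 0.866 and 0.85 in control 1 to 3 and 2.77, 2.12 and 2.8 in mutant 1 to 3. Divided by Wipi1 they were 1.33, 1.28 and 1.28 in controls and 4.45, 3.93 and 6.39 in mutants. The pairs were chosen after their values had been seen, and since Sqstm1 was higher and the other two lower without overlap, the ratios had to separate the genotypes. They describe the size of an unequal change between 2 genes and show neither which of them moved nor the level of either protein.

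The rest of the machinery was read from a list of 56 other autophagy genes, 55 of which were tested. Of these, 2 rose and 18 fell by the adjusted test, and 35 did not pass, against 19% higher and 16% lower among all genes tested. Their median log2 fold change was -0.10, and 4 were higher and 23 lower in mutants without overlap between genotypes, against 49.2% of all genes tested in either direction. With all libraries scaled to the same total, 5 were higher and 14 lower and the median turned to 0.07, while the median of all genes tested went from 0.03 to 0.19. Under that scaling 67% of the genes called among all genes were higher, in place of 54.3%. Without control 2, 12 of the 55 passed, all of them lower, and 6734 of all genes passed in place of 9040.

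In the ULK complex, 3 of 5 genes fell, Ulk1 among them, and none rose, where 16% of all genes tested were lower and 19% higher. Ulk2, the second kinase of the pair, fell from 4414 ± 111 to 2424 ± 87.2 (log2 fold change -0.86, SE 0.09, adjusted p = 0.00018 by limma). Atg13, an adaptor that binds the kinase, fell from 1839 ± 103 to 1219 ± 116 (-0.60, SE 0.12, adjusted p = 0.0053 by limma). Errors here and in the next paragraphs are SDs over 3 libraries.

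In the lipid kinase complex, 1 of 8 genes rose and 2 fell, a share near the 35% of all genes tested that passed. The lipid supply and WIPI groups below, with 2 genes called in each, read against the same 35%. The kinase gene Pik3c3 (log2 fold change -0.43, adjusted p = 0.014 by limma) and its regulatory partner Pik3r4 (-0.48, adjusted p = 0.013 by limma) fell, while Becn1 stayed as given above. Nrbf2, a further partner of the complex, rose by 0.46 (adjusted p = 0.017 by limma). Among the 6 genes for lipid supply, Atg2a, whose protein moves lipids into the growing membrane, fell by 0.72 (adjusted p = 0.0066 by limma) and Atg9a, whose protein is carried on the vesicles that seed it, fell by 0.49 (adjusted p = 0.012 by limma), and none rose. Atg9b, chosen here after its values were seen, read 14.9 ± 10.8 in controls and 51.9 ± 30.6 in mutants with overlapping values. Of the 4 WIPI genes, Wdr45 fell by 0.54 (adjusted p = 0.014 by limma) beside Wipi1. Pik3c3, Pik3r4, Nrbf2, Atg9a and Wdr45 each lost the call without control 2, Pik3c3 and Nrbf2 also without control 3, and Nrbf2 without mutant 3. Pik3c3 and Pik3r4 lost it with libraries scaled to the same total too. With eBayes run without trend, Pik3c3, Pik3r4, Nrbf2 and Atg9a lost it. Over the 17 alternatives the adjusted p reached 0.072, 0.056, 0.063, 0.06 and 0.063, in the order first given, by limma or the test of that alternative.

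Of 11 conjugation genes, 1 rose and 1 fell, where 35% of all genes tested passed. Atg3, the enzyme that hands ATG8 proteins to the lipid, rose by 0.32 (3957 ± 92 to 4952 ± 120, adjusted p = 0.017 by limma), and Atg4a, a protease that prepares them, fell by 0.42 (1518 ± 42.7 to 1133 ± 40.1, adjusted p = 0.015 by limma). Both lost the call without control 2 and without control 3, with an adjusted p of up to 0.086 over the alternatives. Atg3 also lost it with eBayes run without trend and with a block for the replicate number. Atg4a also lost it with libraries scaled to the same total. The other 9 did not pass, Atg5, Atg7 and Atg12 among them. Of the 5 ATG8 genes, Map1lc3b, Gabarapl2 and Gabarap fell, where 16% of all genes tested were lower. Gabarapl2 went from 3687 ± 355 to 2233 ± 337 (-0.73, SE 0.14, adjusted p = 0.0041 by limma), and Gabarap from 25612 ± 1501 to 18411 ± 618 (-0.48, SE 0.08, adjusted p = 0.003 by limma).

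Of 14 cargo receptors tested, Sqstm1 was the only one that rose and 7 fell, where 19% of all genes tested were higher and 16% lower. Retreg1, a receptor for the digestion of endoplasmic reticulum, listed in the table under its older symbol Fam134b, fell the most. It read 1461, 1834 and 1640 in controls and 614, 361 and 511 in mutants (log2 fold change -1.76, SE 0.20, adjusted p = 0.00035 by limma). Ccpg1, another receptor for endoplasmic reticulum, fell from 5189 ± 278 to 2572 ± 151 (-1.01, SE 0.09, adjusted p = 0.00012 by limma). Bnip3, a receptor for mitochondria, fell from 1686 ± 199 to 907 ± 156 (-0.90, SE 0.16, adjusted p = 0.0029 by limma). The remaining 4 that fell, named after their values were seen, were Bnip3l, Calcoco1, Fundc1 and Nbr1. Nbr1, which like p62 binds ubiquitinated cargo, fell by 0.39 and lost its call in 7 of the 17 alternatives, among them those without control 1, control 2, mutant 1 or mutant 2 (adjusted p up to 0.18). Retreg1, Ccpg1 and Atg9b were the 3 genes of the wider list past the 2-fold limits, which 24.2% of all genes tested met, and without control 1 a single gene of the list met them. A further receptor gene, Calcoco2, was at 0 to 16.1 normalized read counts and was not tested.

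Of 7 genes for fusion with the lysosome, where again 35% of all genes tested passed, Tecpr1, which tethers the autophagosome there, fell from 4695 ± 111 to 2757 ± 484 (-0.78, adjusted p = 0.0021 by limma) and the other 6 did not pass. None of the 5 transcription factor genes, Tfeb among them, passed the adjusted test by limma, and edgeR and DESeq2 called 0 of them too. Tfe3 and Zkscan3 passed, both higher, only with libraries scaled to the same total. Foxo3, named here after its values were seen, was the 1 with an unadjusted p under 0.05 (log2 fold change -0.49, adjusted p = 0.089 by limma).

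**Figure D3:**
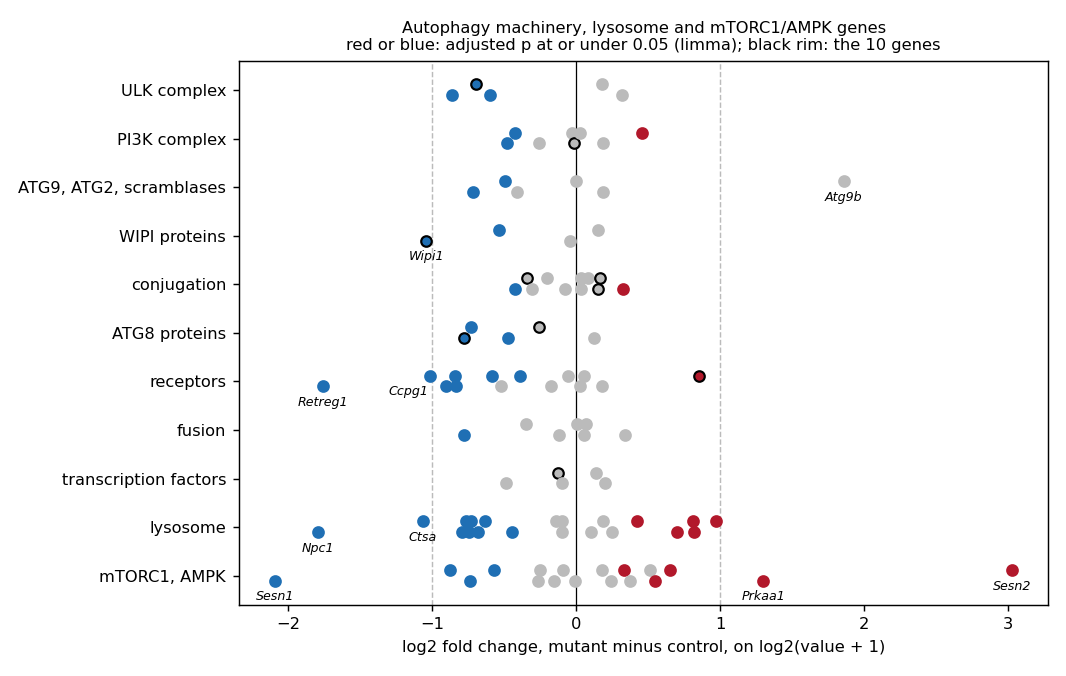
Log2 fold change, mutant minus control on log2(value + 1) (x axis), of each tested gene of the autophagy, lysosome and mTORC1/AMPK lists, 1 point per gene and 1 row per group, with the 10 genes rimmed in black and dashed lines at a 2-fold change. Blue points are lower and red ones higher at an adjusted p at or under 0.05 by limma: the ULK complex and ATG8 rows hold 3 blue and no red point each, the receptor row 7 blue and 1 red, the lysosome row 9 blue and 5 red, and the mTORC1/AMPK row 4 blue and 5 red.

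Lysosomal genes went both ways. Of 20 tested, 5 rose and 9 fell, where 19% of all genes tested were higher and 16% lower, with a median log2 fold change of -0.12 that turned to 0.04 when libraries were scaled to the same total. Npc1, which exports cholesterol from lysosomes, fell from 14334 ± 891 to 4159 ± 592 (-1.79, SE 0.12, adjusted p = 1.97e-05 by limma). Ctsa, a lysosomal protease that also shields other enzymes, fell from 14370 ± 408 to 6900 ± 729 (-1.06, SE 0.10, adjusted p = 0.000105 by limma). Gla, which cleaves galactose from glycolipids, rose from 257 ± 26.8 to 507 ± 88.7 (0.97, SE 0.20, adjusted p = 0.0062 by limma).

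Of 18 genes of mTORC1 and AMPK, the nutrient and energy sensors that act on ULK1, 5 rose and 4 fell, where 19% of all genes tested were higher and 16% lower, and the median log2 fold change was 0.09. The same 75th percentile gave 3 higher and 5 lower with a median of 0.02, and the same total 5 and 3 with a median of 0.25. With 1 library left out, 2 to 4 were higher and 2 to 4 lower, and the median went from 0.03 without control 2, 0.04 without mutant 1 and 0.05 without control 3 to 0.10 without mutant 2. The counts were 3 and 2 without control 2, where 6734 of all 25802 genes passed, and 2 and 4 without control 3, where 6869 passed. The largest changes of this list were in 2 sestrins, stress-induced inhibitors of mTORC1. Sesn2 rose from 233 ± 83.9 to 1834 ± 203 (log2 fold change 3.02, SE 0.24, adjusted p = 5.02e-05 by limma). Sesn1 fell from 4359 ± 403 to 1028 ± 134 (-2.09, SE 0.13, adjusted p = 1.6e-05 by limma). Sesn3, the third paralog, named after its values were seen, fell by 0.57 (adjusted p = 0.027 by limma) and lost its call in 7 of the 17 alternatives, among them those without control 1, control 2, mutant 1 or mutant 2. Prkaa1, which encodes 1 of the 2 catalytic subunits of AMPK, rose from 716 ± 82.2 to 1755 ± 75 (1.30, SE 0.13, adjusted p = 0.00014 by limma). Of the other AMPK genes, also named after their values were seen, Prkaa2, the other catalytic subunit, had a log2 fold change of 0.51 and did not pass (adjusted p = 0.30 by limma), Prkag1, a regulatory subunit, fell by 0.74 (adjusted p = 0.0011 by limma), and Prkab1, another regulatory subunit, rose by 0.55 (adjusted p = 0.018 by limma) and lost its call in 3 alternatives, among them those without control 3 and without mutant 1.

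Marker lists of the cells that the nerve can hold were read against the same shares of all genes tested, 19% higher and 16% lower. All 5 markers of myelinating Schwann cells fell, with a summed level of 3589000 to 4407000 in controls and 520600, 86920 and 207100 in mutant 1 to 3, and 4 of 5 general Schwann cell markers fell (68950 to 71580 against 17980 to 28450). Of the fibroblast markers 3 of 6 fell (2492000 to 2894000 against 1015000 to 1490000), and of the red blood cell markers 5 of 6 (54930 to 77000 against 5133 to 15720). Skeletal muscle markers rose, 5 of 6 of them (5633 to 30090 against 37480 to 283700), most in mutant 3. Macrophage markers went both ways, 2 higher and 3 lower of 7, with a summed level of 10750 to 14040 in controls and 5160 to 6990 in mutants. Of the lymphocyte markers Lck and Cd2 rose (2 of 5; sums of 64.6 to 99.9 against 534 to 688), while Cd3e was at 5.07 to 25.5 in all 6 libraries. Of the other lists, 3 of 4 neuronal markers rose, 2 of 6 endothelial markers rose, a share near the 35% of all genes that passed in either direction, 1 of 3 perineurial markers rose and 1 fell, 1 of 4 melanocyte markers rose and 2 fell, and none of 5 pericyte, 4 adipocyte and 3 tested neutrophil markers passed (neutrophil sums of 15.1 to 153 against 67.3 to 410). The adipocyte sum was 6464 in mutant 2, 23.3 and 13.9 in the other mutants, and 7.56 to 1596 in controls. The part of these shifts in the autophagy results was not tested. Without mutant 3 the log2 fold changes were 0.77 for Sqstm1, -0.80 for Map1lc3b, -0.55 for Ulk1 and -0.92 for Wipi1, with adjusted p-values of 0.0028, 0.0022, 0.009 and 0.0014 by limma. Without mutant 1 they were 0.85, -0.73, -0.78 and -1.11, and with any 1 of the 6 libraries left out the adjusted p of these 4 genes was at most 0.0035, 0.0025, 0.022 and 0.0031 by limma. Leaving out mutant 3 made the difference in muscle marker sums smaller but did not remove it. The sums of mutant 1 (87570) and mutant 2 (37480) were still above every control.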

How the data were processed

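The authors aligned paired-end reads to mm10 with STAR 2.4.0, counted those on constitutive gene regions and deposited 1 table of signal values, read counts normalized by DESeq size factors, per gene and library. Dividing each library by the value of 1 read (0.727 to 1.27) gave whole numbers for 100% of values (tolerance 0.001). Groups and replicate numbers came from the labels. limma 3.58.1 in R 4.3.3 (lmFit, eBayes with trend) was fitted to log2(value + 1) as mutant minus control. The fit covered 25802 genes, those whose mean reached 10 in either genotype, with Benjamini-Hochberg adjustment over them. Fold changes on this scale understate the change of low genes. Values are not per gene length, so levels are not compared between genes. Replicate libraries differed beyond sampling noise (chi-square per gene 25.7 to 133). Same-numbered libraries did not deviate together (correlations of -0.06, -0.06 and 0.01), so the numbers were not used as pairs. The alternatives were 11 other settings (pseudocounts of 0.1 and 10, no filter, a minimum mean of 50, TMM factors, the same total, the same 75th percentile, a replicate block, eBayes without trend, and edgeR 4.0.16 and DESeq2 1.42.0 on recovered reads) and each of the 6 libraries left out. Scripts were tested on simulated data. The genes and lists were chosen with earlier results of these data known. Besides the 10 genes, named are up to 4 called genes per autophagy group and 3 per other list, by size of change, Adar and markers. Any other gene was named after its values were seen or because it overlaps one of the 10.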

Additional observations from a re-analysis of the deposited data

How the results depend on the processing

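Sqstm1, Map1lc3b, Ulk1 and Wipi1 kept their direction and their adjusted p at or under 0.05 in all 17 alternatives, with log2 fold changes of 0.77 to 1.02, -0.85 to -0.62, -0.78 to -0.53 and -1.11 to -0.88. The number of the 10 genes past the adjusted test was 4 in 16 of them and 5 with the same 75th percentile. It was 4 under edgeR, DESeq2 and the replicate block alike. Leaving out each library in turn gave 4 in every case, and 0 to 1 past the 2-fold limits. For the wider list the count of 20 went from 12 to 19 with a library left out and from 14 (eBayes without trend) to 21 under the other settings, and its count of 3 past the 2-fold limits from 1 to 3. The 14 were all lower, and in that setting 6999 of all 25802 genes passed in place of 9040. The block for the replicate number, which the labels do not say pairs animals, left 18 of the wider list and 7730 of all genes past the adjusted test, and changed no call of the 10 genes. The sign of Becn1 turned with the same total (0.15), and with a library left out its log2 fold change went from -0.066 to 0.050 (above 0 without control 2, control 3 or mutant 2, at 0.0041, 0.0032 and 0.050). That of Tfeb turned with the same total (0.037) and went from -0.27 to 0.087 (above 0 without control 2), and the cause was not tested. The standard errors of the 10 genes were 0.09 to 0.19 on the log2 scale, with at least 673 reads behind each value.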

Other observations

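The 2 main lysosomal membrane proteins, Lamp1 and Lamp2, were looked at after their values had been seen. Lamp1 fell from 18152 ± 1893 to 10845 ± 989 normalized read counts (SD, n = 3 each; log2 fold change -0.74, adjusted p = 0.0013 by limma). Lamp2, which is also needed for the fusion of autophagosomes with lysosomes, rose from 6683 ± 622 to 10961 ± 1941 (0.70, adjusted p = 0.0057 by limma). The 3 lysosomal proteases looked at in the same way differed too, with Ctsd at 51516 in the controls and 29892 in the mutants (-0.79, adjusted p = 0.00054 by limma) and Ctsl at 8429 and 14823 (0.81, adjusted p = 0.0025 by limma). Ctsb, at 48199 and 54930, did not pass (adjusted p = 0.14 by limma).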
